A study of Rattus norvegicus with 9 samples.

Results

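The synaptic vesicle and release genes described here are 33 named genes whose products load, dock, prime, fuse and recover the vesicles of nerve terminals. They were looked up by gene name in a table of 34890 loci, and 32 of the 33 had a row. No row carried the name Sv2b. The table came from sequencing RNA of the lumbar spinal cord, on the side of the operation, of male Sprague Dawley rats, labelled wild type, in 3 groups of 3 samples, each sample labelled as a biological replicate. JA rats had a sham operation and received saline by gavage. SNI rats had spared nerve injury, in which the tibial and common peroneal nerves are tied and cut and the sural nerve is left, and received saline. PLM rats had the same injury and received paeoniflorin at 20.65 mg/mL with liquiritin, for which the study's methods describe the PLM dose as a single concentration, while the labels of replicates 1, 2 and 3 read 3.98, 3.99 and 3.100 mg/mL. The samples were treated here as replicates of the same dose. In the study's methods the solution was dosed by body weight, and gavage went on for weeks after the operation. Age was not given in the sources used here. SNI and PLM therefore share the injury, and there was no group that received the drugs without it. SNI versus JA addresses the injury, PLM versus SNI the treatment of injured rats, and PLM versus JA how far treated injured rats were from sham rats.

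At a nerve terminal, transmitter is packed into vesicles by transporters such as the vesicular glutamate transporters, and vesicles are held near the membrane by synapsins and by large scaffold proteins of the active zone. Priming factors and Rab3 effectors ready the vesicle, SNARE proteins on vesicle and plasma membrane zip together, and synaptotagmins trigger fusion when calcium enters. NSF and its adaptors then take the SNARE complex apart, and dynamin, amphiphysin and synaptojanin retrieve the membrane. In the spinal cord these proteins serve the terminals of sensory afferents, of descending fibres and of local neurons, while the RNA of an afferent or descending neuron is held largely in its cell body outside the cord.

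Promoters of the members had a higher median GC content than promoters at large. RefSeq sequence (assembly GRCr8) from 250 bases before to 50 bases after the annotated start was matched by symbol for 31 of the 33 genes, all but Snap25 and Rims2. Their median GC content was 64.7%, with a range from 49% to 73%, and the median over all promoters of that table was 51.7%. The GC box GGGCGG, searched on both strands, was found in 21 of the 31 windows (67.7%) and in 33.1% of all 33469 windows of the same length. The TATA motif TATAAA was found in 0 of 31, against 14.2% of all windows. The cyclic AMP response element TGACGTCA, which reads the same on both strands, was found in 2 of 31 (6.45%), those of Syn1 and Vamp1, against 1.83% of all windows. CCAAT was found in 9 of 31 (29%) and in 37.5% of all windows. These are matches of letters and say nothing of binding. The promoters of 3 genes are shown 5′ to 3′ on the strand of the gene, as the 250 bases before the start: Unc13a because it was the member called in PLM versus SNI, and Vamp1 and Syn1 because they hold the TGACGTCA match. In Unc13a (chr16:18415787-18416036, minus strand) the capitals mark 2 GC boxes, which read CCGCCC on this strand. In Vamp1 (chr4:159698644-159698893, plus strand) they mark a GC box and, nearer the start, TGACGTCA. In Syn1 (chrX:3725495-3725744, plus strand) they mark TGACGTCA.
Unc13a: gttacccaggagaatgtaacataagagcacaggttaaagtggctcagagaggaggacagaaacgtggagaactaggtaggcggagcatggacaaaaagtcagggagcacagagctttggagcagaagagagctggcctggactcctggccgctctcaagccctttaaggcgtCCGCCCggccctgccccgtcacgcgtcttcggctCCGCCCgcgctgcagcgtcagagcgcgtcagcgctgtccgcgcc
Vamp1: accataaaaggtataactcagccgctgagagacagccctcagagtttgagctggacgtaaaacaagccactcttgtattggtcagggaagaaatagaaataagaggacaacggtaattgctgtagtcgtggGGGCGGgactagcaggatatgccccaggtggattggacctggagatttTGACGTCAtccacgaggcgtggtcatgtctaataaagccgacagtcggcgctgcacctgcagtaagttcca
Syn1: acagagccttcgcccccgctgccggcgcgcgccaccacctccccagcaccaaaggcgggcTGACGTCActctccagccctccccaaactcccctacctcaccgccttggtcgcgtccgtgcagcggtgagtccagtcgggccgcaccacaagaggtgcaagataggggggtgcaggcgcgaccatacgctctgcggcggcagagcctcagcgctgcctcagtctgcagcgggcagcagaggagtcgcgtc

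The values are TPM, a measure of transcript abundance that is scaled for transcript length and to the same total in every sample, so levels can be compared between genes but the read depth behind a value is unknown. A shift that touches most genes can therefore move any list. The 13 mitochondrial protein genes took 25.3% to 32.8% of TPM in JA, 23.7% to 26.1% in SNI and 31.3% to 32.8% in PLM, so that the PLM range lay above the SNI range. Over all loci tested, the median log2 difference of PLM from SNI was -0.21 on the values as deposited and 0.04 after each sample was centred on its median. Counts and medians of the members are therefore given on the deposited values and on the centred ones. Fold changes of single members are on the deposited values unless called centred. Markers of neurons were plentiful in all samples, with a summed level of 4496 to 7821 TPM in JA, 7182 to 9108 TPM in SNI and 6445 to 7598 TPM in PLM for 15 genes, and 6 of 7 markers of dorsal root ganglion neurons averaged under 1 TPM, 1 of them at 0 in every sample. In bulk tissue, fewer neurons and less RNA per neuron cannot be told apart.

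The release genes covered a wide range of abundance. On the mean over 9 samples, 11 members were above 100 TPM, 14 were between 10 and 100 TPM, 5 were between 1 and 10 TPM and 2 were under 1 TPM. Snap25, which encodes the plasma membrane SNARE SNAP-25, was the most abundant, followed by Vamp1, Sncb, Syp, Cplx1 and Rab3a. The least abundant of the members tested were the active zone scaffold genes Bsn and Pclo and the vesicle glycoprotein gene Sv2c. Of the 31 neighbouring pairs in this order, 13 had the higher gene above the next in each of the 9 samples, and only Pclo over Slc17a7 had ranges that did not touch, so most neighbours were not separated beyond the spread between samples.

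**Figure D1:**
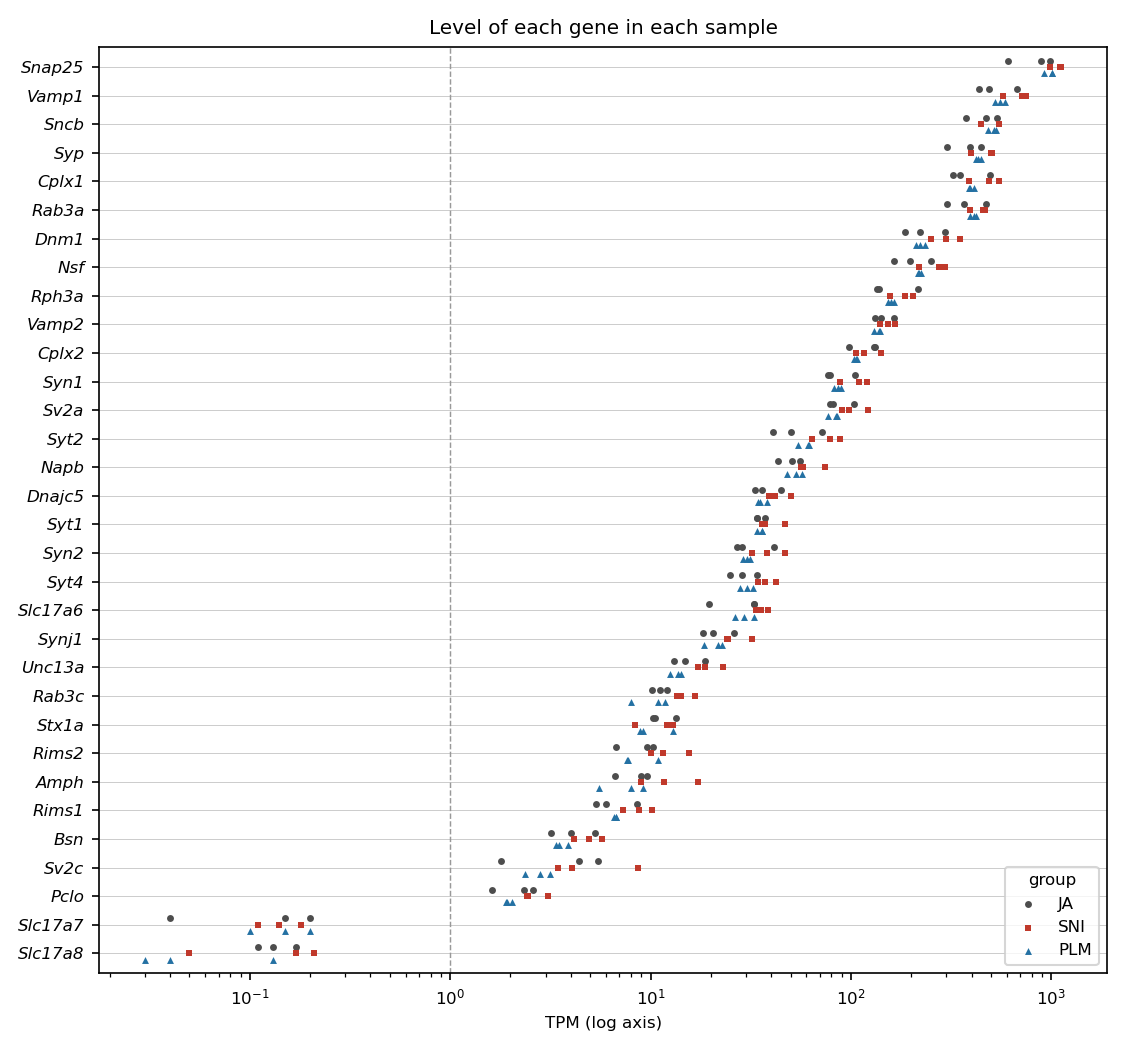
TPM of the 32 genes with a row in each of 9 samples, on a log axis, ordered by the mean over all samples, with JA as grey circles, SNI as red squares and PLM as blue triangles. Snap25 is at the top, between 606 and 1121 TPM, and Slc17a7 and Slc17a8 lie left of the dashed line at 1 TPM in every sample.

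In PLM versus SNI, Unc13a, which encodes the priming factor Munc13-1, was the 1 member of 30 tested that was lower past the adjusted threshold (limma, Benjamini-Hochberg adjustment over all loci, 0.05), and no member was higher. Over all 15474 loci tested, 13.6% were called lower by the same rule. All 30 members had a log2 fold change below 0, as had 85% of all loci, and the median of the members was -0.28 beside -0.21 for all loci. The fold changes ran from -0.68 for Sv2c to -0.00 for Sncb, which encodes beta-synuclein. On median-centred values no member passed (0.685% of all loci were called lower), and 18 of 30 members lay below 0 (42.4% of all loci), with a median of -0.04 beside 0.04. At an unadjusted p-value under 0.05, 16 members were lower on the deposited values (35.8% of all loci) and 1 on centred values (6.89% of all loci), again Unc13a. None of them had an absolute log2 fold change above 1 as well, the pair of thresholds in the study's methods (1.42% of all loci were lower past both). Every PLM sample lay below every SNI sample for 14 members, against 41.9% of all loci. After centring this held for Unc13a alone (9.73% of all loci), while every PLM sample lay above every SNI sample for Snap25 (14.1% of all loci). The call for Unc13a was lost when SNI replicate 1 or 3 or any PLM replicate was left out, and without SNI replicate 2 there were 9 members called lower: Cplx1, Dnm1, Nsf, Rims1, Syn1, Syn2, Syt2, Unc13a and Vamp1 (9.46% of all loci).

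In SNI versus JA, no member passed the adjusted threshold in limma in either direction, and neither did any of the 15557 loci tested (0% called higher), so the smallest adjusted p of a member was 0.614. Higher values in SNI were nonetheless the rule among the members: 29 of 30 had a log2 fold change above 0 (76.4% of all loci), all but Stx1a, and their median was 0.31 beside 0.12 for all loci. On centred values 27 of 30 lay above 0 (48.6% of all loci), with a median of 0.19 beside -0.01. Rab3c, Syt4 and Syt2 had an unadjusted p-value under 0.05 on the deposited values (6.11% of all loci were higher by that rule), and Rab3c on centred values (1.7% of all loci). None was also past a log2 fold change of 1 (0.495% of all loci). Every SNI sample lay above every JA sample for Napb, Rab3c, Slc17a6, Snap25 and Syt4, 5 of 30 members beside 12.1% of all loci, and after centring for Rab3c only (4% of all loci). JA replicate 1 stood near the SNI samples, and without it 18 members were higher at an unadjusted p-value under 0.05 (16.5% of all loci), or 4 on centred values (4.43% of all loci), and 0 after adjustment on either scale. Without any other sample the count was between 1 and 5 on the deposited values.

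In PLM versus JA, no member passed the adjusted threshold in limma, where 2 loci of 15349 were lower (0.013%) and 1 was higher (0.00652%), and none had an unadjusted p-value under 0.05, where 10.5% of all loci were lower and 1.3% higher, or passed both thresholds of the study, as 0.658% of all loci did in the lower direction. The smallest adjusted p of a member was 0.589. Without JA replicate 1, 7 members were higher at an unadjusted p-value under 0.05 (3.27% of all loci), or 11 on centred values (6.05% of all loci), without JA replicate 3 there were 2 lower and 0 higher as deposited (18.1% of all loci were lower) and 1 lower and 3 higher centred (7.09% and 7.9% of all loci), and 0 passed after adjustment in each case. The fold changes scattered around 0, with 17 of 30 below it (71.2% of all loci) and a median of -0.01 beside -0.10 for all loci. On centred values 24 of 30 lay above 0 (56.3% of all loci), with a median of 0.11 beside 0.03, and every PLM sample lay above every JA sample for Napb, Snap25, Sncb, Syp, Syt1 and Syt4, 6 of 30 beside 9.51% of all loci. No member had groups without overlap on the deposited values, where 15.7% of all loci had every PLM sample below every JA sample and 2% above. A p that misses the threshold does not show that the groups were equal: the 95% confidence intervals had a median half-width of 0.38 on the log2 scale here, 0.43 in SNI versus JA and 0.28 in PLM versus SNI. Intervals lay wholly between -1 and 1 for 29, 27 and 28 of the 30 members in that order. The 3 comparisons share samples, so low JA values and high SNI values enter 2 of them each.

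**Figure D2:**
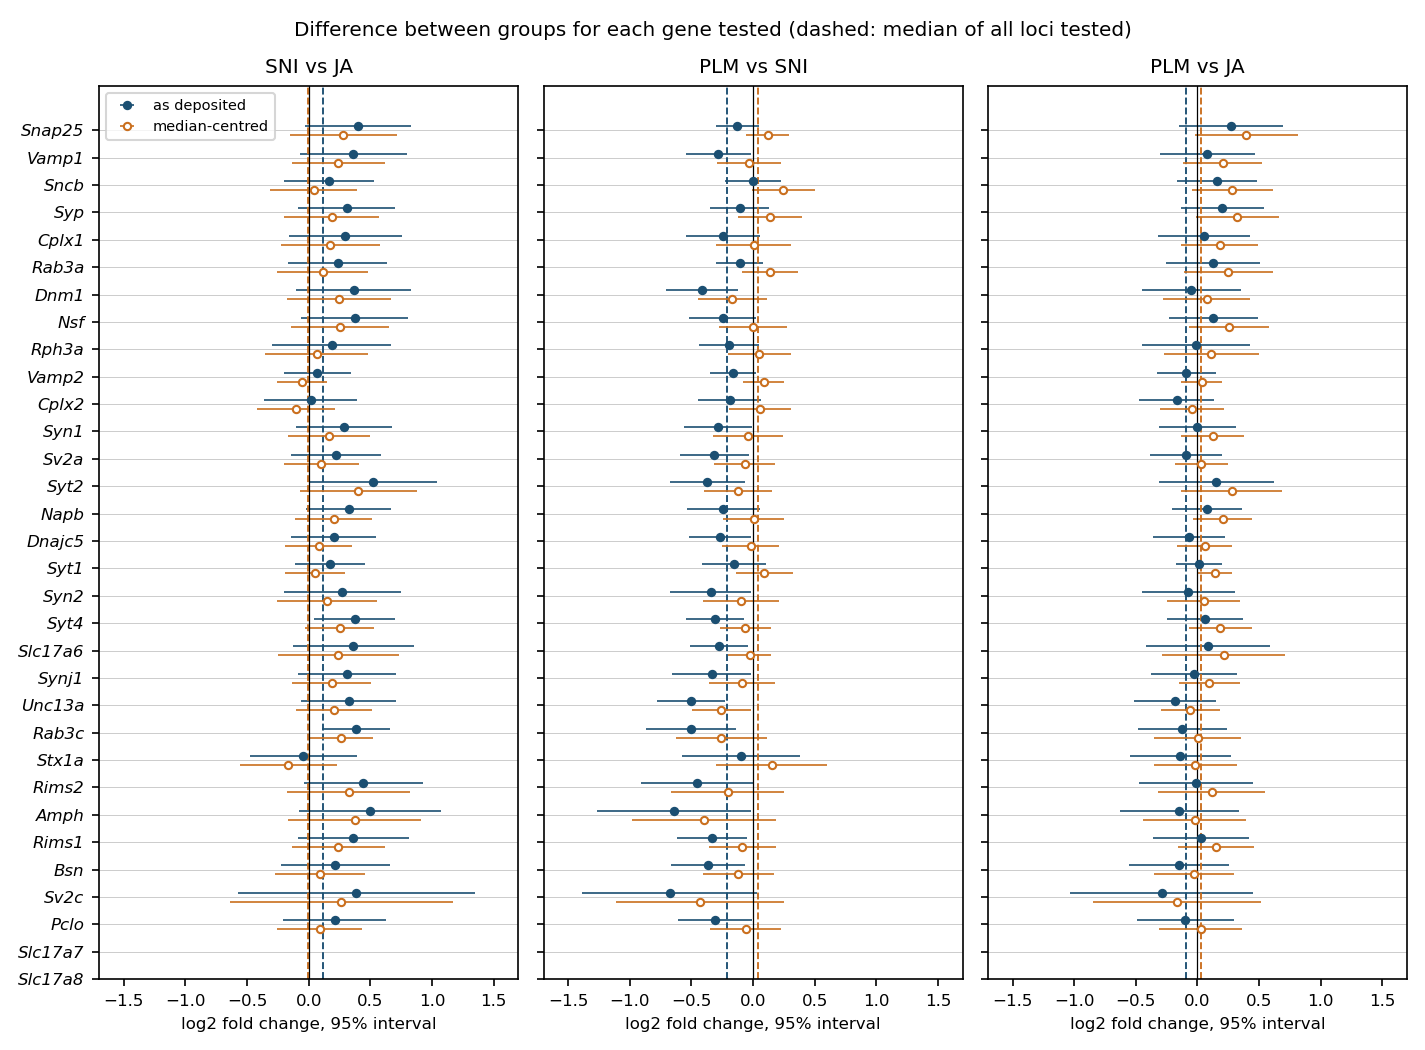
Log2 fold change of each gene with its 95% confidence interval from limma in SNI versus JA, PLM versus SNI and PLM versus JA, as deposited (filled blue) and median-centred (open orange), with the median of all loci tested as a dashed line of the same colour. In PLM versus SNI the filled points all lie at or left of 0 and the open points straddle it, and the rows of Slc17a7 and Slc17a8 are empty because these genes were under the filter of 1 TPM.

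Active zone and priming genes lay furthest below 0 after the endocytosis genes, and all 5 of them were below it in PLM versus SNI on both scales (median -0.37 as deposited and -0.12 centred). Unc13a (ENSRNOG00000018452) was at 18.8, 14.8 and 13.05 TPM in JA, at 22.9, 17.2 and 18.8 TPM in SNI and at 12.5, 13.7 and 14.2 TPM in PLM. All PLM samples were below all SNI samples, JA overlapped both groups, and the means were 15.6 ± 2.94, 19.7 ± 2.94 and 13.5 ± 0.845 TPM (SD, n = 3) in JA, SNI and PLM. In PLM versus SNI its log2 fold change was -0.51 with a standard error of 0.11 (limma, adjusted p = 0.0390), and -0.26 ± 0.098 (SE) on centred values (limma, adjusted p = 0.262). In SNI versus JA it was 0.32 with a standard error of 0.16 (limma, adjusted p = 0.614), and in PLM versus JA -0.18 with a standard error of 0.14 (limma, adjusted p = 0.647).

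Among the other active zone genes, Rims2, which encodes a scaffold that ties vesicles to calcium channels, was at 10.2, 6.70 and 9.58 TPM in JA, at 10.1, 11.6 and 15.5 TPM in SNI and at 7.72, 7.63 and 10.9 TPM in PLM. The groups overlapped through SNI replicate 1 and PLM replicate 3. Between groups its log2 fold change was 0.44 in SNI versus JA (limma, adjusted p = 0.614) and -0.45 in PLM versus SNI (limma, adjusted p = 0.138), or -0.21 centred. Bsn, which encodes the scaffold Bassoon, was at 5.29, 3.99 and 3.18 TPM in JA, at 5.72, 4.15 and 4.93 TPM in SNI and at 3.49, 3.87 and 3.38 TPM in PLM. PLM lay below SNI without overlap, by a log2 fold change of -0.37 (limma, adjusted p = 0.0894) or -0.12 centred, and within the JA range. Rims1 and Pclo, the gene of the scaffold Piccolo, also had PLM below SNI without overlap, with log2 fold changes of -0.33 and -0.31 that did not pass after adjustment.

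SNARE genes included the most abundant members and had a median in PLM versus SNI of -0.14 as deposited, the nearest to 0 of the role groups on that scale, and of 0.10 centred, and 3 of the 4 above 0 after centring. Snap25 was at 981, 606 and 886 TPM in JA, at 1100.4, 983 and 1121 TPM in SNI and at 920.3, 1004 and 1007 TPM in PLM. SNI lay above JA without overlap, by the narrow gap between JA replicate 1 and SNI replicate 2, and PLM lay between them in its mean, 977 ± 49.0 TPM against 824 ± 195 in JA and 1068 ± 74.2 in SNI (SD, n = 3). Its log2 fold change was 0.40 with a standard error of 0.18 in SNI versus JA (limma, adjusted p = 0.614), -0.13 with a standard error of 0.07 in PLM versus SNI (limma, adjusted p = 0.236; 0.12 centred) and 0.27 with a standard error of 0.18 in PLM versus JA (limma, adjusted p = 0.589). Of the vesicle SNAREs, Vamp1 had 437 to 676 TPM in JA, 574 to 748 in SNI and 521 to 589 in PLM, and Vamp2 had 130 to 166 TPM over all samples. Stx1a, which encodes syntaxin-1A, had 8.40 to 13.5 TPM over all samples and was the only member with a fold change below 0 in SNI versus JA, at -0.04.

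The 3 synaptotagmin genes, Syt1, Syt2 and Syt4, had medians of 0.37 in SNI versus JA and -0.31 in PLM versus SNI on the deposited values. Both medians are the values of Syt4. Syt2, the sensor of many fast synapses of hindbrain and spinal cord, was at 71.4, 40.9 and 50.3 TPM in JA, at 88.3, 63.7 and 79.1 TPM in SNI and at 54.2, 60.8 and 61.9 TPM in PLM. PLM lay below SNI without overlap and inside the JA range. Its log2 fold change was 0.52 with a standard error of 0.22 in SNI versus JA (limma, unadjusted p = 0.0484, adjusted p = 0.614) and -0.37 with a standard error of 0.13 in PLM versus SNI (limma, adjusted p = 0.0910), the latter being -0.12 centred. Syt4, which encodes a synaptotagmin that also sits on dense-core vesicles, was at 34.2, 25.0 and 28.7 TPM in JA, at 42.5, 34.3 and 37.2 TPM in SNI and at 28.1, 32.5 and 30.5 TPM in PLM. SNI was above both other groups without overlap, although JA replicate 1 and SNI replicate 2 differed by under 1 TPM. Its log2 fold change was 0.37 with a standard error of 0.14 in SNI versus JA (limma, unadjusted p = 0.0332, adjusted p = 0.614) and -0.31 with a standard error of 0.10 in PLM versus SNI (limma, adjusted p = 0.0766), the latter being -0.06 centred. Syt1, the sensor of most forebrain synapses, ranged only from 34.1 to 46.7 TPM, and its groups overlapped in each comparison on the deposited values.

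Complexins and the genes of SNARE recycling had medians of -0.24 in PLM versus SNI as deposited and 0.00 centred. Cplx1, a clamp and activator of the SNARE complex, was at 492, 350.2 and 324 TPM in JA, at 549.6, 389 and 487 TPM in SNI and at 389, 413 and 391 TPM in PLM. The groups overlapped, and the fold changes were 0.30 in SNI versus JA, -0.24 in PLM versus SNI and 0.06 in PLM versus JA, with adjusted p-values from limma of 0.622, 0.203 and 0.906. Centred, its difference in PLM versus SNI turned to 0.01. Cplx2, its paralogue, was at 131, 132 and 97.9 TPM in JA, at 141, 106 and 117 TPM in SNI and at 106, 107 and 104 TPM in PLM. Its groups overlapped, and its log2 fold change was 0.02 in SNI versus JA and -0.19 in PLM versus SNI (limma, adjusted p = 0.237), which turned to 0.06 centred. Napb, which encodes beta-SNAP, the adaptor that brings NSF to spent SNARE complexes, was at 55.8, 43.1 and 50.8 TPM in JA, at 74.2, 56.4 and 57.8 TPM in SNI and at 47.9, 53.0 and 57.0 TPM in PLM. SNI lay above JA without overlap, by under 1 TPM between SNI replicate 2 and JA replicate 1, and PLM overlapped both. In log2 terms Napb differed by 0.32 in SNI versus JA (limma, adjusted p = 0.614) and -0.24 in PLM versus SNI (limma, adjusted p = 0.194), which became 0.00 centred. Nsf ranged from 164 to 295 TPM and Dnajc5, which encodes the cysteine string protein, from 33.1 to 50.2 TPM, and neither passed in any comparison.

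Among the Rab3 genes, Rab3c, a minor Rab3 of the vesicle surface, was at 12.2, 10.1 and 11.1 TPM in JA, at 14.2, 16.8 and 13.6 TPM in SNI and at 10.96, 8.03 and 11.8 TPM in PLM. SNI stood above both other groups without overlap, on deposited values and, against JA, on centred values too. Its log2 fold change was 0.38 with a standard error of 0.12 in SNI versus JA (limma, unadjusted p = 0.0142, adjusted p = 0.614), the smallest p of any member in that comparison, and -0.50 with a standard error of 0.15 in PLM versus SNI (limma, adjusted p = 0.0688). On centred values these were 0.26 (unadjusted p = 0.0470, limma) and -0.26 (unadjusted p = 0.143, limma). Rab3a, the main Rab3 of neurons, was at 471, 301 and 367 TPM in JA, at 469, 395 and 459 TPM in SNI and at 423, 410.0 and 391 TPM in PLM. Its groups overlapped throughout, with log2 fold changes of 0.24 in SNI versus JA and -0.11 in PLM versus SNI (limma, adjusted p = 0.638 and 0.347), the latter turning to 0.14 centred. Rph3a, which encodes the Rab3 effector rabphilin, had its highest and lowest values, 217 and 135 TPM, both in JA.

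Vesicle membrane and surface genes had a median of 0.28 in SNI versus JA and -0.30 in PLM versus SNI on deposited values, and 2 of 6 lay above 0 in the latter after centring. Syp, the gene of synaptophysin, was at 446, 303 and 391 TPM in JA, at 498, 399 and 507 TPM in SNI and at 431, 444 and 420.4 TPM in PLM. Its groups overlapped, at 0.31 in SNI versus JA, -0.11 in PLM versus SNI and 0.20 in PLM versus JA (limma, adjusted p = 0.614, 0.442 and 0.618). Centred, the value for PLM versus SNI turned to 0.14. Sncb was at 538, 375 and 471 TPM in JA, at 545, 447 and 547 TPM in SNI and at 520.3, 529 and 483 TPM in PLM. SNI and PLM had nearly equal means, 513 ± 57.5 and 511 ± 24.8 TPM (SD, n = 3), and the log2 fold change between them was -0.00 with a 95% interval from -0.23 to 0.22 (limma, adjusted p = 0.993). On centred values it was 0.25 (limma, adjusted p = 0.312). Sv2c, an SV2 of restricted neuron types, was the most variable member tested, at 5.49, 4.40 and 1.79 TPM in JA, at 8.68, 4.07 and 3.45 TPM in SNI and at 2.82, 2.36 and 3.16 TPM in PLM. PLM lay below SNI without overlap and inside the JA range, and the fold change of -0.68 had a standard error of 0.29 (limma, adjusted p = 0.147), or -0.43 centred. Sv2a, Syn1 and Syn2, the last pair encoding synapsins, had fold changes in PLM versus SNI between -0.35 and -0.29 that did not pass after adjustment.

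Slc17a6, which encodes VGLUT2, was the only vesicular glutamate transporter gene above 1 TPM. It was at 33.0, 19.5 and 32.8 TPM in JA, at 38.6, 35.4 and 33.6 TPM in SNI and at 26.5, 29.4 and 32.9 TPM in PLM. SNI was above the other groups without overlap, by under 1 TPM between its replicate 3 and JA replicate 1. The log2 fold change was 0.36 with a standard error of 0.21 in SNI versus JA (limma, adjusted p = 0.614) and -0.27 with a standard error of 0.10 in PLM versus SNI (limma, adjusted p = 0.0990), and the latter was -0.03 on centred values. Slc17a7, the gene of VGLUT1, was at 0.20, 0.04 and 0.15 TPM in JA, at 0.18, 0.11 and 0.14 TPM in SNI and at 0.20, 0.15 and 0.10 TPM in PLM. Slc17a8, the gene of VGLUT3, was at 0.17, 0.13 and 0.11 TPM in JA, at 0.21, 0.17 and 0.05 TPM in SNI and at 0.03, 0.04 and 0.13 TPM in PLM. These levels were under the filter, and with no filter neither gene passed in any comparison (limma, smallest adjusted p = 0.427). In the cord, VGLUT1 is known mainly from the terminals of afferent and corticospinal fibres.

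Endocytosis genes were below 0 in PLM versus SNI for 3 of 3 members on both scales, with medians of -0.42 and -0.17, and above 0 in SNI versus JA, with a median of 0.37 as deposited. Dnm1, which encodes dynamin-1, the GTPase that pinches off the recovered vesicle, was at 297, 186 and 221 TPM in JA, at 349, 252 and 299 TPM in SNI and at 211, 235 and 222 TPM in PLM. PLM lay below SNI without overlap and inside the JA range. Against SNI, Dnm1 in PLM differed by -0.42 (SE 0.12) on the log2 scale (limma, unadjusted p = 0.0123, adjusted p = 0.0647), and it passed when loci were required to reach 1 TPM in every sample (limma, adjusted p = 0.0459). Centred, the difference was -0.17 (limma, adjusted p = 0.513). Synj1, the gene of the lipid phosphatase synaptojanin-1, was at 18.2 to 26.02 TPM in JA, 24.2 to 32.2 in SNI and 18.6 to 22.7 in PLM. Amph, the gene of amphiphysin, was at 6.65 to 9.66 TPM in JA, 8.93 to 17.3 in SNI and 5.55 to 9.21 in PLM, and it overlapped in each comparison.

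Many of these uncalled differences moved when 1 library was left out. With each sample left out in turn on the deposited values, the log2 fold change moved by over 1.5 times for 14 of the 16 members given in full that were tested in SNI versus JA (all but Rab3c and Syt4), for 8 of 16 in PLM versus SNI and for 16 of 16 in PLM versus JA, where most values were near 0. Those 8 in PLM versus SNI were Cplx1 (-0.38 to -0.13), Cplx2 (-0.28 to -0.07), Napb (-0.31 to -0.12), Rab3a (-0.19 to -0.06), Rims2 (-0.61 to -0.29), Sv2c (-0.90 to -0.34), Syp (-0.22 to -0.05) and Sncb (-0.10 to 0.05). Their values nearest 0 or past it came without SNI replicate 1 or 3. In SNI versus JA the values of Snap25 (0.19 to 0.54), Slc17a6 (0.12 to 0.49), Rab3a (0.08 to 0.40), Sncb (0.02 to 0.28), Syp (0.15 to 0.43), Syt2 (0.34 to 0.74), Dnm1 (0.21 to 0.55) and Rims2 (0.28 to 0.57) were lowest without JA replicate 2. Those of Bsn (0.07 to 0.37), Cplx1 (0.18 to 0.48), Sv2c (0.02 to 0.63) and Unc13a (0.21 to 0.46) were lowest without JA replicate 3, where Cplx2 turned to -0.12, and Napb (0.20 to 0.41) was lowest without SNI replicate 1. Cplx2 was also below 0 in SNI versus JA on centred values, at -0.10. The highest values in SNI versus JA came without JA replicate 1, except for Rims2 (without SNI replicate 1) and Cplx2 (without SNI replicate 2). Moves of this size were not counted over all loci.

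Members were high or low together from sample to sample. On the deposited values, SNI replicate 1 held the highest of the 9 values for 22 of the 30 members tested. JA replicates 3 and 2 held the lowest for 13 and 11. SNI replicate 1 also had the highest median log2(TPM + 1) over all loci, 3.53. The share of all loci highest or lowest in these samples was not counted. For each member the deviation of log2(TPM + 1) from its 9-sample mean was taken, and the median over members was 0.19, -0.23 and -0.21 in JA replicates 1 to 3, 0.37, -0.00 and 0.19 in SNI and -0.16, -0.05 and -0.07 in PLM. On centred values it was 0.10, -0.22 and -0.13 in JA, 0.21, -0.12 and 0.09 in SNI and 0.03, 0.06 and 0.00 in PLM. The PLM samples were thus close to one another, with an SD of 0.03 on the centred scale, while JA and SNI each spread over an SD of 0.16 and 0.17, and both held samples above and below 0. Counted by member, 22, 4 and 4 of 30 were above their own mean in JA, 28, 3 and 23 in SNI and 19, 22 and 15 in PLM on centred values. The neuron markers, which hold none of the members, also had their lowest JA and lowest SNI value in replicate 2, at 0.09, -0.46 and -0.11 in JA, 0.11, -0.11 and 0.14 in SNI and 0.22, 0.21 and -0.00 in PLM on the centred scale.

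**Figure D3:**
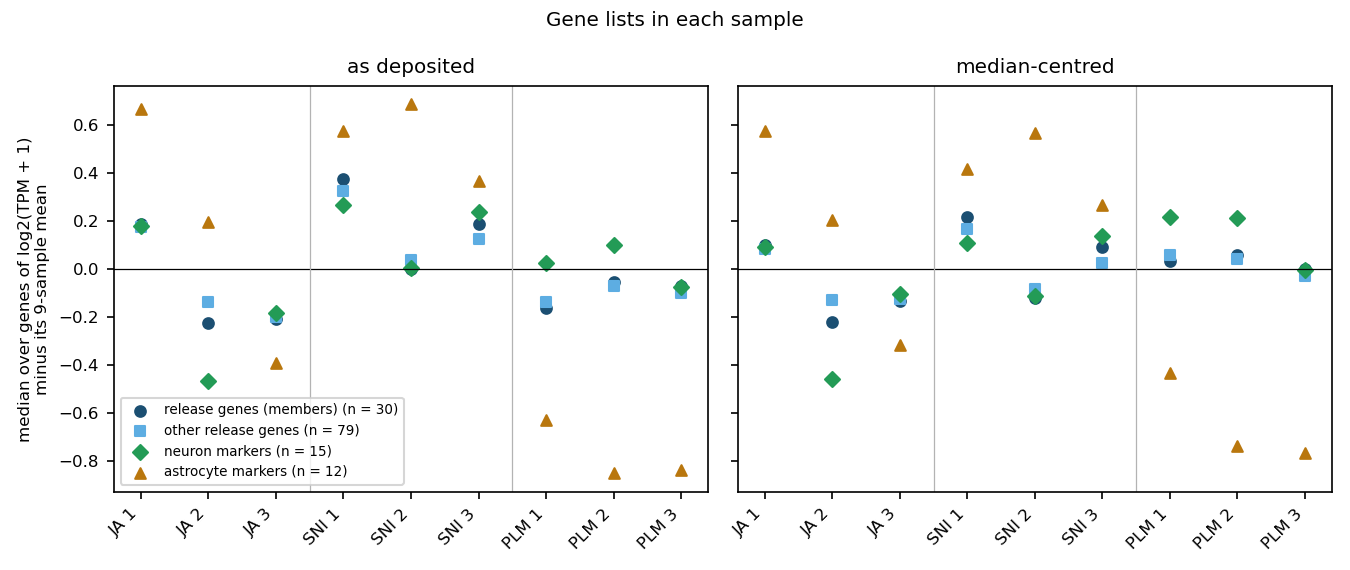
Median over the genes of a list of log2(TPM + 1) minus each gene's 9-sample mean, for each sample, as deposited (left) and median-centred (right), for the members (dark circles), other release genes (light squares), neuron markers (green diamonds) and astrocyte markers (brown triangles). The circles spread within JA and SNI and lie together at 0.00 to 0.06 in PLM after centring, whereas the astrocyte triangles lie below -0.40 in each PLM sample.

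Pairs of members had like patterns over the samples. Pearson's r of centred log2(TPM + 1) over the 9 samples was above 0 for 391 of 435 pairs of members, with a median of 0.56 and a lowest value of -0.67. The most alike pairs were Cplx1 with Syn1 (r = 0.97, Spearman's rho = 0.90), Vamp1 with Cplx1 (r = 0.97, rho = 0.95) and Cplx1 with Rims1 (r = 0.96, rho = 0.97). Without the 2 samples farthest from the median of the first-named gene, r was 0.96, 0.94 and 0.92. The pairs share their 9 libraries and the group differences, and the values are given as a description. Pairs of other loci were not compared, so the likeness is not shown to be particular to these genes.

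Ratios of paralogues within a sample cancel any scaling common to both genes. They were taken for 7 pairs, chosen after values had been seen. Vamp1 over Vamp2 was 4.11, 3.43 and 3.33 in JA, 4.50, 4.10 and 4.66 in SNI and 4.01, 4.20 and 3.995 in PLM. Syt2 over Syt1 was 1.92, 1.20 and 1.48 in JA, 1.89, 1.78 and 2.13 in SNI and 1.59, 1.68 and 1.71 in PLM, the only ratio with a comparison without overlap, PLM below SNI by 0.22 on the log2 scale. Cplx1 over Cplx2 was 3.77, 2.65 and 3.31 in JA, 3.88, 3.66 and 4.16 in SNI and 3.67, 3.84 and 3.76 in PLM. Vamp1, Syt2 and Cplx1 were thus above Vamp2, Syt1 and Cplx2 in each of the 9 samples. Over 21 comparisons the smallest p of a two-sided exact permutation test was 0.10, which is the smallest that 3 against 3 samples allow, and the smallest adjusted p was 0.63. Rab3a over Rab3c and Sv2a over Sv2c varied most, from 23.6 to 51.1 and from 13.9 to 45.3.

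**Figure D4:**
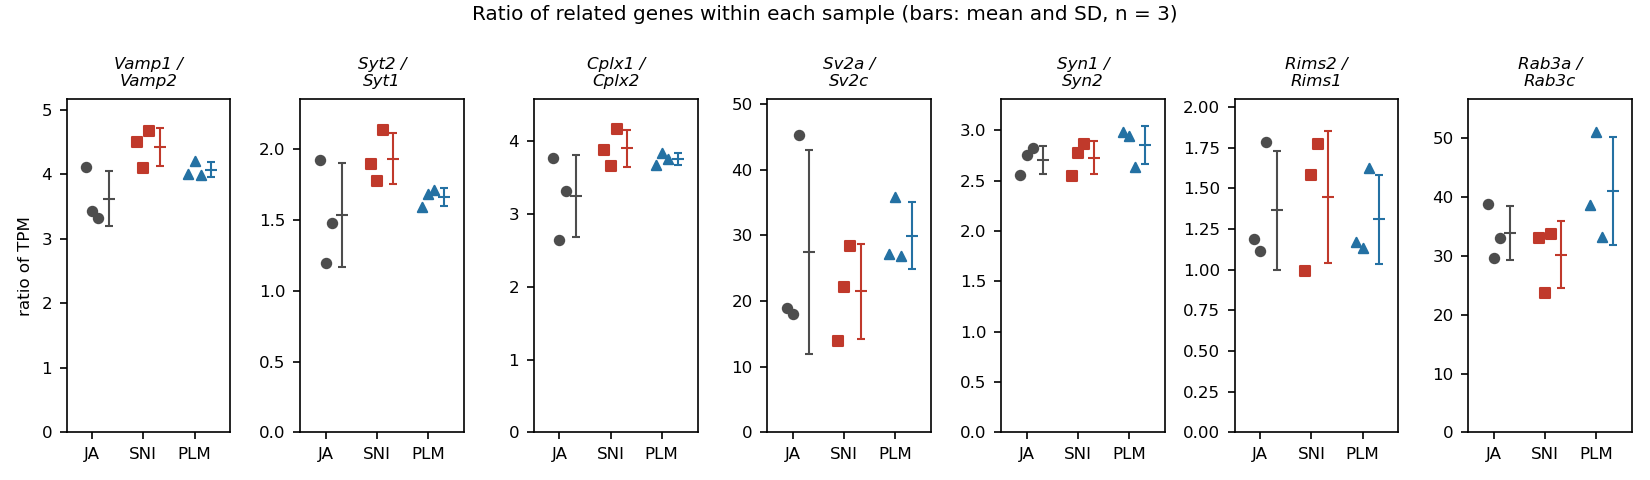
Ratio of TPM between related genes within each sample for 7 pairs, with JA as grey circles, SNI as red squares and PLM as blue triangles, and the mean and SD (n = 3) beside them on axes that start at 0. Only Syt2 over Syt1 has groups apart, with PLM at 1.59 to 1.71 below SNI at 1.78 to 2.13.

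Other genes of the release machinery, had 81 genes with a row, of which 79 were tested. In PLM versus SNI, 10 of the 79 passed the adjusted threshold as lower, beside 13.6% of all loci, and 0 as higher, 74 of 79 lay below 0, beside 85% of all loci, and their median was -0.26 as deposited and -0.02 centred, with 0 called on centred values in limma (6 lower and 3 higher at an unadjusted p-value under 0.05, beside 6.89% and 10% of all loci). The 5 with the smallest p were Syt12 (-0.54, adjusted p = 0.0235), the endocytic scaffold gene Itsn1 (-0.57, adjusted p = 0.0255), Syt9 (-0.68, adjusted p = 0.0279), the clathrin adaptor gene Ap2b1 (-0.53, adjusted p = 0.0341) and the vesicle proton pump gene Atp6v0a1 (-0.41, adjusted p = 0.0348), all from limma. None was called in SNI versus JA, with a median of 0.19 as deposited and 0.07 centred beside 0.31 and 0.19 for the members, or in PLM versus JA, with -0.05 and 0.07 beside -0.01 and 0.11.

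Cell type markers were read beside these results. In PLM versus SNI the 15 neuron markers had a median log2 fold change of -0.18 as deposited and 0.07 centred, with 0 of 15 called in limma (3 lower at an unadjusted p-value under 0.05 as deposited, and 2 higher after centring). The 12 astrocyte markers had medians of -1.24 and -0.99, with 11 and 8 called lower (13.6% and 0.685% of all loci). The members had -0.28 and -0.04. Markers of oligodendrocytes (10 genes) had a median of -0.11 as deposited and 0.14 centred. On centred values 10 of 10 lay above 0, beside 8912 of 15474 loci. There, 5 were higher at an unadjusted p-value under 0.05 (10% of all loci). Those of microglia (9 genes) had 0.04 and 0.29, with 1 called lower as deposited (13.6% of all loci). After centring, 1 was lower and 6 were higher at an unadjusted p-value under 0.05 (6.89% and 10% of all loci). The 4 motor neuron markers tested had -0.39 and -0.14, with 1 called lower as deposited (13.6% of all loci). The 6 Schwann cell markers had -0.66 and -0.41, all below 0 (85% and 42.4% of all loci) and none called. In SNI versus JA the neuron markers had a median of 0.30 as deposited and 0.18 centred, beside 0.31 and 0.19 for the members. Astrocyte markers had 0.40 and 0.28 there, Schwann cell markers 0.58 and 0.46, oligodendrocyte markers -0.09 and -0.21 and microglia markers -0.05 and -0.18, with none called in limma. At an unadjusted p-value under 0.05, 2 of 15 neuron markers and 1 of 4 motor neuron markers were higher on both scales. Of all loci, 6.11% were higher as deposited and 1.7% centred. After centring 2 oligodendrocyte and 2 microglia markers were lower by that rule, beside 487 of 15557 loci. The motor neuron markers had 0.91 and 0.79, and the summed level of the 5 listed ran from 68.4 to 206 TPM in JA and from 165 to 259 TPM in SNI. The summed level of 6 Schwann cell markers ran from 126 to 7897 TPM in JA, 580 to 4495 in SNI and 277 to 3308 in PLM, a wide range within each group. In PLM versus JA the neuron markers had medians of 0.19 as deposited and 0.32 centred, beside -0.01 and 0.11 for the members. Motor neuron markers had 0.54 and 0.67 there, astrocyte markers -0.95 and -0.83 and Schwann cell markers -0.02 and 0.10. Oligodendrocyte markers had -0.13 and -0.01 and microglia markers -0.10 and 0.03, and none of these markers was called in limma. The part of neuron, motor neuron, astrocyte, Schwann cell and mitochondrial content in the members' values was not tested.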

How the data were processed

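RNA of 9 rat spinal cord samples (3 each of JA, SNI and PLM, grouped by their titles) was sequenced by the authors, who trimmed reads, mapped them with HISAT2 and computed expression with StringTie. The submitters' processing notes name CASAVA, fastp version 0.19.5, StringTie and the build GRCh38.p13, a human build, although the identifiers are rat Ensembl ones. The authors deposited TPM values, scaled to 1000000 per sample with 2 decimals. TPM keeps no depth, so the precision that depth gives is unknown and count tests were not used.

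Pairwise fits of log2(TPM + 1) used limma (version 3.58.1, R version 4.3.3), two-sided, with a variance trend and without covariates. A locus entered where its 6 samples averaged at least 1 TPM, and p-values were adjusted over all such loci by the Benjamini-Hochberg method. The added pseudocount understates the fold changes of low genes. Of 32 members with a row, 30 were tested. Ratios were compared with exact permutation tests in scipy version 1.17.1. Calling was run on simulated data with independent noise and planted changes larger than any member's, so small or shared differences were not covered. Promoters came from RefSeq (GRCr8).

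The members and lists (8 roles, other release genes, and markers of neurons, motor neurons, astrocytes, oligodendrocytes, microglia, Schwann cells and dorsal root ganglion neurons) were chosen with earlier results of these data known. Full values are given for members called on centred values (none), the 6 with the smallest p in each comparison, the most abundant of each role and those under 1 TPM. Of the other release genes, the 5 called with the smallest p in each direction are named. Vamp1 and other members outside this rule are given by range. Alternatives were median-centring, quantile normalization, rescaling without the 13 mitochondrial protein genes, a pseudocount of 0.1, no filter, 1 TPM in every sample, a block for the replicate number, all 9 samples in 1 fit, and omission of single samples. Nothing beyond the label ties replicates to separate rats, so p-values measure the spread between these samples.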

Additional observations from a re-analysis of the deposited data

How the results depend on the processing

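In PLM versus SNI, 0 members were called lower on median-centred values (0.685% of all loci), after quantile normalization (0.853%), without the mitochondrial genes (1.66%), with no filter (5.63%), with all 9 samples in 1 fit (3.09%) and with the replicate block (0.976%, and 0% when also centred), and 2 were called (Dnm1 and Unc13a) with 1 TPM required in every sample (18.7% of all loci). With each sample left out in turn the count ran from 0 to 9, the 9 without SNI replicate 2. Unc13a kept its sign in every alternative, with an adjusted p from limma between 0.0296 and 0.491. The median log2 fold change of the members was -0.037 centred, with or without the block, -0.092 after quantile normalization and -0.14 without the mitochondrial genes, and with samples left out, centred values included, it ran from -0.38 to 0.030. With samples left out the median in SNI versus JA ran from 0.085 (centred, without SNI replicate 1) to 0.44 (without JA replicate 1), and in PLM versus JA from -0.089 to 0.20. A pseudocount of 0.1 changed none of these counts. Counts in SNI versus JA and PLM versus JA at the adjusted threshold were 0 under each alternative. The causes were not tested. Fold changes of named members that were not called took the opposite sign in 122 cases, 62 of them in PLM versus SNI. Sign and call were both kept in 864 cases, 252 of them in PLM versus SNI. The rest kept the sign but gained or lost a call. The correlation of deviations between samples of the same number ran from -0.05 to 0.13, and between samples of different numbers from -0.19 to 0.14. Such low values cannot exclude that replicate numbers mark a pairing or a batch. With the replicate block 7 members were lower in PLM versus SNI (25.6% of all loci) and 15 higher in SNI versus JA (11.2% of all loci) at an unadjusted p-value under 0.05, and 0 after adjustment. No DESeq2 fit was run, since there are no counts.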
